A study of Homo sapiens with 6 samples.

Results

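Respiratory chain genes were taken as the protein-coding genes on the mitochondrial chromosome together with the nuclear genes whose symbols mark them as subunits of complexes I to V. The symbols used were those that start with NDUFA, NDUFB, NDUFC, NDUFS or NDUFV and a digit, SDHA to SDHD, UQCR, COX4 to COX8, and ATP5F1, ATP5M or ATP5P. The rule gave 101 of the 19986 genes counted, 13 encoded in mitochondria and 88 in the nucleus. Subunits with other symbols, such as CYC1 of complex III and NDUFAB1 of complex I, are not among them. RNA was measured in HEK293T, a transformed line derived from human embryonic kidney. All 6 libraries came from cells given dCas9-VP64, a Cas9 protein that cannot cut and carries an activator, along with rtTA, a doxycycline-responsive transactivator, and every title names SunTag. In 3 libraries, whose genotype label is CRISPRa, the cells also received an sgRNA against SVA_D, a subfamily of the hominid SVA retrotransposons. The other 3, whose genotype label is WT, had no guide. Whether the replicates are separate cultures is not stated, and the p-values then reflect only how these 6 libraries vary, a spread that may be technical.

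The alignment names in the file headers follow one scheme in replicates 1 and 2 of both groups and another in replicate 3 of both groups. These are called batch A and batch B below, and what differed between them beyond the naming is not given in the sources used here. Between 16557854 and 22651168 counts fell on genes in each library. Levels are in CPM (counts scaled to 1e+06 per library, on TMM-scaled library sizes), and a floor of 3 counts stood at 0.128 to 0.187 CPM. All 8 genes known to be expressed in HEK293 cells, such as VIM and NEFM, were detected, and of 18 marker genes of other cells 2 were at 0 in all libraries and 13 stayed under 1 CPM in each. The summed level of those 18 markers was 18.5 to 41.0 CPM with the guide and 20.4 to 36.5 CPM without it, most of it from ACTN2 at 13.2 to 18.7 CPM and COL1A1 at 1.81 to 16.5 CPM.

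The respiratory chain carries electrons from NADH, through complex I, and from succinate, through complex II, to coenzyme Q, then through complex III and cytochrome c to oxygen at complex IV. Complexes I, III and IV pump protons across the inner mitochondrial membrane, and complex V, the ATP synthase, uses their return to make ATP. Complexes I, III, IV and V hold subunits from both genomes, while complex II is wholly nuclear. The mitochondrial genes are read as long RNAs that cover many genes and are then cut apart, mostly at tRNAs, whereas each nuclear gene has a promoter of its own.

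MT-ATP8, a small membrane subunit of complex V, and MT-ND4L, a small membrane subunit of complex I, each run into the next gene, with which they share a single mature RNA. They are shown because the 46 bases that MT-ATP8 shares with MT-ATP6, and the 7 that MT-ND4L shares with MT-ND4, bear on what could be counted: a read pair that touches both genes was given to neither. The sequences come from GENCODE release 29 (GRCh38), read 5′ to 3′ on the plus strand of the mitochondrial chromosome, chrM:8366-8572 and chrM:10470-10766. Capitals mark the bases shared with the next gene.
MT-ATP8: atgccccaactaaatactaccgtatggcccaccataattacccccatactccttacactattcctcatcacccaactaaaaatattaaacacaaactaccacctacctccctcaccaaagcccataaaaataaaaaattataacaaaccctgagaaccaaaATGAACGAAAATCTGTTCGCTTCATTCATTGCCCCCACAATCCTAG
MT-ND4L: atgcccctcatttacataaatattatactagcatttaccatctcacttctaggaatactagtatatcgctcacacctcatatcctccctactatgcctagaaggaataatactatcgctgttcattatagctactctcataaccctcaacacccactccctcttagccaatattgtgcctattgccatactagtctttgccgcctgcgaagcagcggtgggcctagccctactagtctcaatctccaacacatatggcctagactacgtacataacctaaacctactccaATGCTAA
MT-ATP8 thus keeps 161 bases that belong to it alone, and MT-ND4L keeps 290.

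Mitochondrially encoded RNAs stood far above the nuclear ones. Per kilobase of exon in GENCODE 29, the mean level without the guide ran from 1344 CPM for MT-ND5, a proton-pumping subunit of complex I, to 11160 CPM for MT-CO1, the catalytic subunit of complex IV, with a median of 3387 CPM over the 13 genes. Among the 65 nuclear members with enough counts to be tested, it ran from 0.28 CPM for NDUFA13 to 496 CPM for NDUFA1, with a median of 44.7 CPM. The lowest mitochondrial gene was thus above the highest tested nuclear one on this scale. The scale pools all exons of a gene, which can far exceed a single transcript in nuclear members: SDHC has 14160 exonic bases and a median transcript of 460. In the mitochondrial genes these lengths are equal. Counting ran over whole gene bodies, so nuclear counts can also hold intron reads, while the length used is exonic only. In the mitochondrial genes the body and the exon are the same. Of the 2708 exonic bases of NDUFA13, 491 lie outside other genes. The size of the gap therefore depends on the measure. Library by library, the 13 mitochondrial genes took 3.82, 4.72 and 4.51% of all gene counts in guide replicates 1, 2 and 3, and 5.25, 5.39 and 4.71% in the same replicates without the guide. The 88 nuclear members together took 0.898, 1.03 and 1.27% with the guide and 1.05, 1.01 and 1.18% without it. Of these 88, 16 were at 0 in all 6 libraries, most of them covered by other genes as described below. The nuclear share is thus that of a part of the nuclear members.

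**Figure D1:**
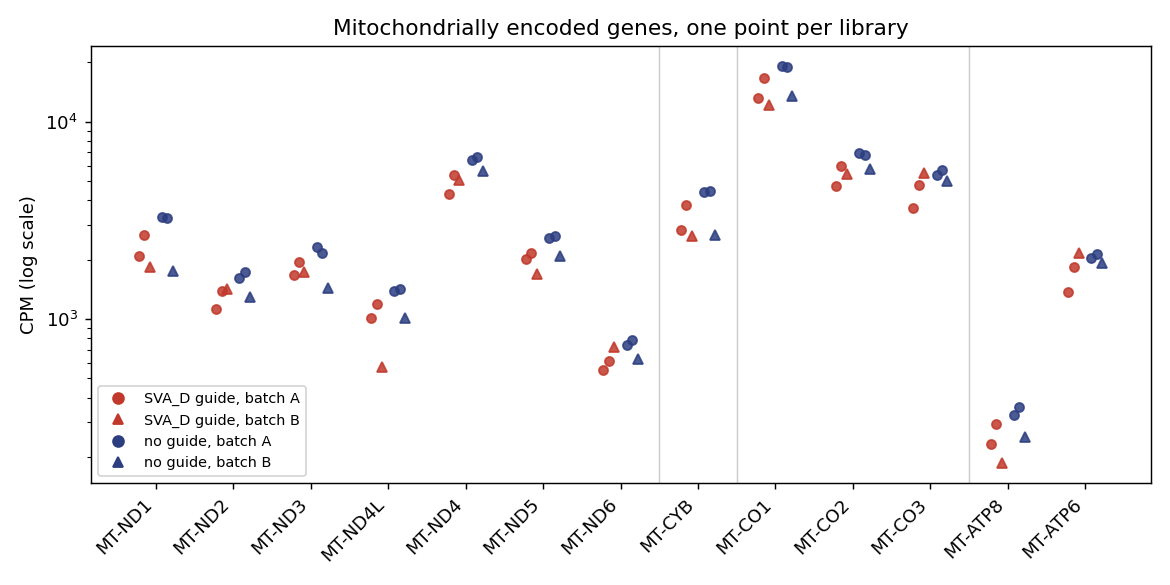
Level of each of the 13 mitochondrially encoded genes in each of the 6 libraries, in CPM on a log axis, with genes ordered by complex. Each point is a library, and colour and shape give the group and batch; MT-CO1 is the highest and MT-ATP8 the lowest in all of them.

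A part of the nuclear respiratory chain could not be read from these counts. Counting ran over whole gene bodies and dropped pairs that overlapped more than 1 gene. Over the whole table, 1232 of 19986 genes (6.16%) lay wholly inside other protein-coding genes, and all 1232 were at 0 in all 6 libraries. Among the 88 nuclear members there were 11 such genes (12.5%): NDUFA7, NDUFA9, NDUFB8 and NDUFC2 of complex I, COX8A and COX8C of complex IV, and ATP5MG, ATP5MGL, ATP5PD, ATP5PO and ATP5MF-PTCD1 of complex V. ATP5PD, a subunit of the stalk of the ATP synthase, lies inside KCTD2, for example, and NDUFB8 is covered by HIF1AN and a second gene. A value of 0 for these 11 carries no information on their RNA.

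A further 6 members had under 5% of their body free of other genes. SDHA, the flavoprotein subunit of succinate dehydrogenase, had 0.147% free, SDHD, one of its membrane anchors, 0.238%, and UQCR11, a small subunit of complex III, 0.337%, and all 3 were at 0. ATP5MF, COX6A1 and NDUFA11 had 0.75, 4.08 and 1.72% free and totals of 19, 42 and 11 counts over the 6 libraries. NDUFC2-KCTD14, a read-through gene, had 3 free exonic bases and 12 counts. Members with no free exonic base numbered 11 and held no counts, and the 6 with 1 to 149 free exonic bases had at most 42. The 65 members with at least 500 free exonic bases had a median total of 14594 counts, and 61 of them passed the filter. Low totals in members that did pass, such as NDUFA13 with 3.69% of its body free and 108 counts, and NDUFA2 with 25.8% and 606 counts, likewise describe only the uncovered stretch of the gene.

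**Figure D2:**
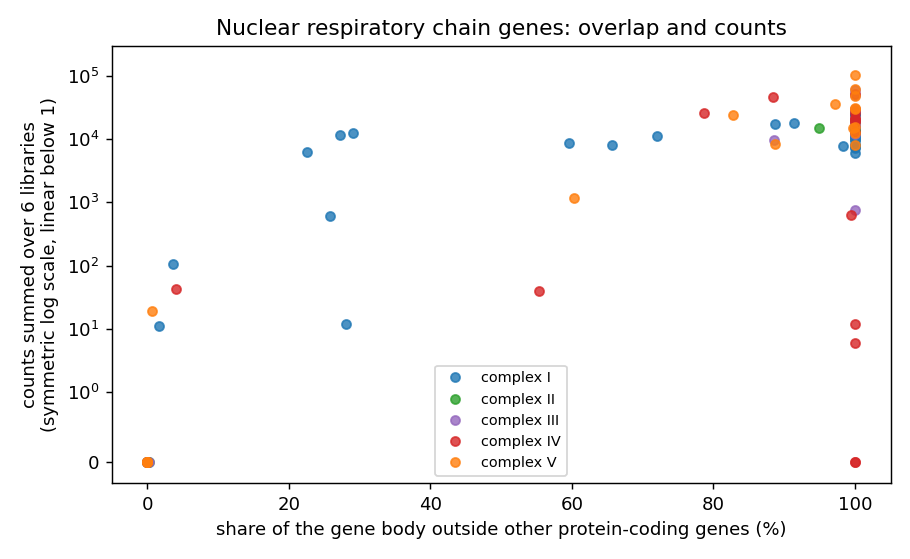
Total count over the 6 libraries (symmetric log axis, linear below 1) against the percent of the gene body not covered by another protein-coding gene, for the 88 nuclear members, with a point for each gene, coloured by complex. Members with none of their body free sit at 0 counts, and the 65 members with at least 500 free exonic bases have a median of 14594.

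The remaining 5 members that could not be tested had most of their exons free and were low all the same. They are the forms of complex IV subunits known from striated muscle, lung or testis: COX4I2 and COX6A2 were at 0, COX7B2 had 6 counts, COX7A1 had 12 and COX6B2 had 39. Of the 39 counts of COX6B2, 8 came from guide replicate 3 and 26 from replicate 3 without the guide. The widely expressed partners were high: COX4I1 ran from 328 to 468 CPM, COX6B1 from 95.6 to 136 CPM, COX7A2 from 116 to 195 CPM and COX7B from 122 to 226 CPM over the 6 libraries. COX6A1 and COX8A, the common forms of the other pairs, are among the covered genes, so those pairs cannot be compared. In all, 78 members were tested, 13 mitochondrial and 65 nuclear (31 of 37 in complex I, 2 of 4 in complex II, 8 of 9 in complex III, 11 of 19 in complex IV and 13 of 19 in complex V).

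The first comparison asked whether the SVA_D guide went with a change in respiratory chain RNA. No member passed the threshold in edgeR's quasi-likelihood test with the batch in the model, where 0 of 13007 genes were called higher and 0 lower (background 0% in each direction). DESeq2 called 1 gene lower, MT-ND4L, and limma-voom called 0. At an unadjusted p under 0.05, 347 genes were higher (2.67%) and 140 lower (1.08%). All 13 mitochondrial genes had a log2 fold change below 0, against 49.0% of all tested genes, and 8 of the 13 were lower at an unadjusted p under 0.05. Their median log2 fold change was -0.29, with a range from -0.51 to -0.12, beside a median of 0.0031 over all tested genes. Of the 65 nuclear members 48 were below 0, with a median of -0.076, and 1 was lower at an unadjusted p under 0.05.

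MT-ND4L had the smallest p. It stood at 1015, 1195 and 571 CPM in guide replicates 1, 2 and 3 and at 1390, 1421 and 1012 CPM without the guide. In each batch its guide libraries were below those without the guide, and guide replicate 3 was the lowest of all. Its log2 fold change was -0.51 ± 0.11 (SE, n = 3 libraries a group), with an unadjusted p of 0.000325 and an adjusted p of 0.856 in edgeR. The call depended on the tool and the filter: the adjusted p was 0.0194 with DESeq2 and 0.00152 in edgeR with no filter on low counts.

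MT-ATP8 followed. Its levels were 231, 294 and 186 CPM with the guide and 327, 358 and 253 CPM without it. The groups overlapped only through guide replicate 2, in batch A, which exceeded replicate 3 without the guide, in batch B. The log2 fold change was -0.40 ± 0.092 (SE), with an adjusted p of 0.904 in edgeR and of 0.0192 in edgeR with no count filter. MT-ND4L and MT-ATP8, the genes printed above, thus had their lowest level in the same library.

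Other complex I genes and MT-CYB, the cytochrome b of complex III, showed smaller differences. MT-ND5 was at 2019, 2153 and 1690 CPM with the guide and at 2570, 2636 and 2099 CPM without it (log2 fold change -0.32 ± 0.084, SE). MT-ND4 was at 4299, 5388 and 5088 CPM with the guide and at 6392, 6644 and 5646 CPM without it (-0.34 ± 0.11, SE). MT-ND4 was the only member whose 3 guide libraries all lay below the 3 without the guide, an order seen in 1.15% of tested genes. MT-ND1, which forms part of the quinone site of complex I, was at 2086, 2653 and 1828 CPM with the guide and at 3286, 3268 and 1761 CPM without it (-0.29 ± 0.12, SE). MT-CYB was at 2827, 3780 and 2629 CPM and at 4430, 4481 and 2682 CPM (-0.30 ± 0.12, SE). In both MT-ND1 and MT-CYB the batch B libraries hardly differed, and the difference came from batch A. MT-ND2 and MT-ND3 gave -0.23 ± 0.12 and -0.12 ± 0.12 (SE).

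MT-CO1 was at 13220, 16611 and 12190 CPM with the guide and at 19236, 18891 and 13503 CPM without it (log2 fold change -0.29 ± 0.12, SE). MT-CO2, which takes electrons from cytochrome c, was at 4748, 5955 and 5454 CPM with the guide and at 6914, 6828 and 5754 CPM without it (-0.27 ± 0.11, SE). In both genes guide replicate 2 was above replicate 3 without the guide, so the groups overlapped. MT-CO3 gave -0.22 ± 0.13 and MT-ATP6, the proton channel subunit of complex V, -0.20 ± 0.13 (SE). MT-ND6, which is encoded on the other strand from the remaining 12 genes, gave -0.19 ± 0.11 (SE). The 5 genes MT-ND2, MT-ND3, MT-ND6, MT-CO3 and MT-ATP6 had an unadjusted p over 0.05.

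Both guide libraries lay below both libraries without the guide in batch A for 13 of 13 mitochondrial genes and 36 of 65 nuclear members, against 17.9% of all tested genes. Within batch A the mitochondrial genes had a median log2 difference of -0.39 and the nuclear members one of -0.21. In batch B, with 1 library a group, it was -0.029 and 0.13, and 7 of 13 and 10 of 65 were below 0. Guide replicate 1 stood out within batch A: it was the lowest of the 4 libraries in 13 of 13 mitochondrial genes and in 56 of 65 nuclear members (86.2%), against 32.2% of all tested genes. Its median log2 distance from the mean of the batch A libraries without the guide was -0.57 for the mitochondrial genes and -0.35 for the nuclear members. For guide replicate 2 the same distances were -0.23 and -0.053, and for guide replicate 3 -0.37 and 0.18. Without guide replicate 1, all 13 mitochondrial genes still had a log2 fold change below 0, with a median of -0.15, while 23 of the nuclear members did, with a median of 0.025. The median of all tested genes in that fit was -0.0013, and their share below 0 was not computed.

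**Figure D3:**
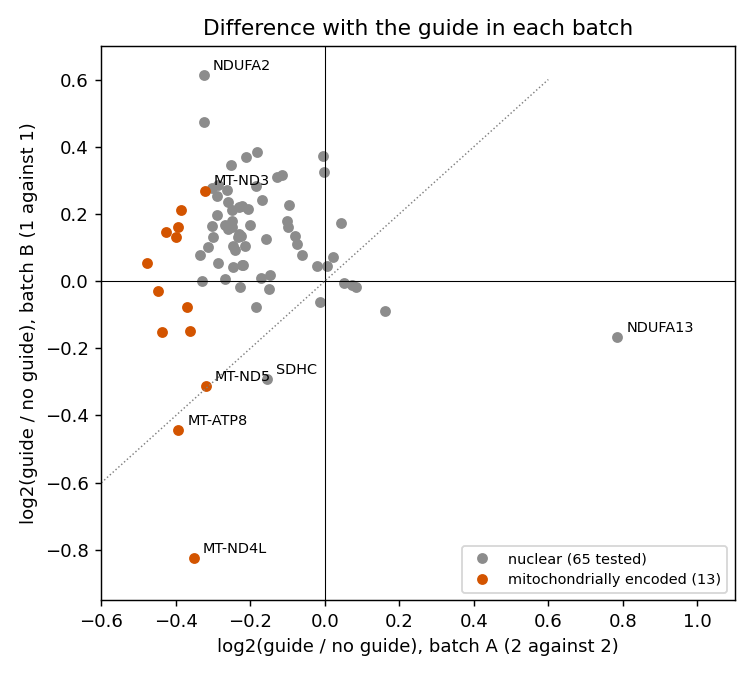
Log2 difference with the guide in batch A (2 libraries against 2, x axis) and in batch B (1 against 1, y axis) for the 78 tested members; each point is a gene and the dotted line marks equal differences. All 13 mitochondrial genes lie left of 0, and MT-ND4L, MT-ATP8 and MT-ND5 are also well below 0 in batch B.

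The nuclear members showed no call with the guide in any complex. In complex I, 21 of 31 were below 0 (median -0.059). The accessory subunits NDUFB3 and NDUFB4 had the smallest p among those below 0. NDUFB3 was at 41.0, 48.8 and 90.02 CPM with the guide and at 55.8, 52.1 and 89.7 CPM without it (log2 fold change -0.17 ± 0.093, SE), and NDUFB4 gave -0.17 ± 0.093. On the other side, NDUFV1 and NDUFS1, which carry the NADH-binding flavin and iron-sulfur clusters, gave 0.087 ± 0.073 and 0.077 ± 0.080 (SE). None of these 4 genes passed the threshold.

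In complex II, SDHC, a membrane anchor of succinate dehydrogenase, was at 105 CPM in guide replicate 1, 113 CPM in replicate 2 and 126 CPM in replicate 3. Without the guide it was at 121, 123 and 154 CPM. Within each batch the guide libraries were the lower ones. SDHC was the nuclear member with an unadjusted p under 0.05 (log2 fold change -0.20 ± 0.074, SE; unadjusted p 0.0174, adjusted p 0.997 in edgeR). SDHB, the iron-sulfur subunit, was at 94.97, 104 and 131 CPM with the guide and at 108, 102 and 119.5 CPM without it, a log2 fold change of -0.0078 ± 0.080 (SE).

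Complex III had 6 of 8 tested nuclear members below 0 (median -0.052). UQCRB gave -0.21 ± 0.10 and UQCRH, the hinge protein, -0.12 ± 0.10, whereas UQCRC1, a core subunit, gave 0.039 ± 0.073 (SE). UQCRHL, a near-identical copy of UQCRH with a total of 757 counts, gave 0.10 ± 0.20 (SE). Pairs that align to both copies were dropped, so the levels of UQCRH and UQCRHL are uncertain. In complex IV 10 of 11 were below 0 (median -0.10), with COX7C at -0.17 ± 0.11, COX7A2L at -0.11 ± 0.078 and COX7B at -0.15 ± 0.11 (SE). The median of these 11 was -0.23 within batch A and 0.14 within batch B, where 0 of them were below 0. Over all tested genes with counts in every library, the batch B median was 0.0067, and the share below 0 was not computed. NDUFA4L2, a paralog of NDUFA4 known from hypoxia, was low, at 6.65, 7.22 and 2.82 CPM with the guide and 7.34, 6.60 and 2.18 CPM without it, and gave 0.086 ± 0.17 (SE). In complex V 9 of 13 were below 0 (median -0.083). The genes for the catalytic head, ATP5F1A and ATP5F1B, gave 0.045 ± 0.076 and 0.032 ± 0.077 (SE). ATP5F1C, its central shaft, gave -0.13 ± 0.092. The 3 genes ATP5MC1, ATP5MC2 and ATP5MC3, which encode the same c-ring protein, gave -0.017 ± 0.11, -0.16 ± 0.085 and -0.13 ± 0.092 (SE).

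The ratio of mitochondrial to nuclear counts within a library does not depend on how the library is scaled. Its nuclear sum lacks the members that other genes cover and can include intron reads. The size of the ratio, also by complex, therefore holds for these counts only. Summed over all complexes the ratio was 4.25, 4.59 and 3.56 in guide replicates 1, 2 and 3, and 5.02, 5.32 and 3.98 in the replicates without the guide. The means were 4.13 ± 0.528 and 4.77 ± 0.702 (SD, n = 3), and the groups overlapped over all 6 libraries. Within each batch the guide libraries had the lower ratio. The log2 difference was -0.20 over the 6 libraries, -0.23 within batch A and -0.16 within batch B. Leaving out 1 library moved the -0.20 to -0.10 without guide replicate 3, to -0.12 without replicate 2 lacking the guide and to -0.33 without replicate 3 lacking the guide. These are differences of group means with no batch term, so leaving out a library also changes the batch make-up of its group. The log2 ratio of batch B minus that of batch A was -0.31 with the guide and -0.38 without it. The guide difference of the ratio was thus similar in size within each batch (-0.23 and -0.16). By contrast, the summed CPM of the mitochondrial genes alone differed by -0.39 within batch A and -0.063 within batch B on the log2 scale. Summed nuclear CPM differed by -0.16 in batch A and by 0.10 in batch B. No test was made of these sums.

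By complex, the ratio in complex I was 4.89, 4.98 and 3.67 with the guide and 5.67, 6.02 and 4.28 without it, a log2 difference of -0.24 in batch A and -0.22 in batch B. In complex III it was 1.94, 2.20 and 1.46 with the guide and 2.37, 2.57 and 1.57 without it (-0.26 and -0.10). Over all 6 libraries the log2 difference was -0.20. It was -0.037 without guide replicate 3 and -0.42 without replicate 3 lacking the guide, where the groups differ in batch make-up. In complex IV the ratio was 11.5, 11.9 and 9.40 with the guide and 12.3, 13.4 and 10.8 without it (-0.14 and -0.20). Complexes I, III and IV thus each had the lower ratio with the guide in both batches. Complex V gave -0.29 within batch A and 0.033 within batch B. Its 2 mitochondrial genes, MT-ATP6 and MT-ATP8, moved apart in batch B, as described below.

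**Figure D4:**
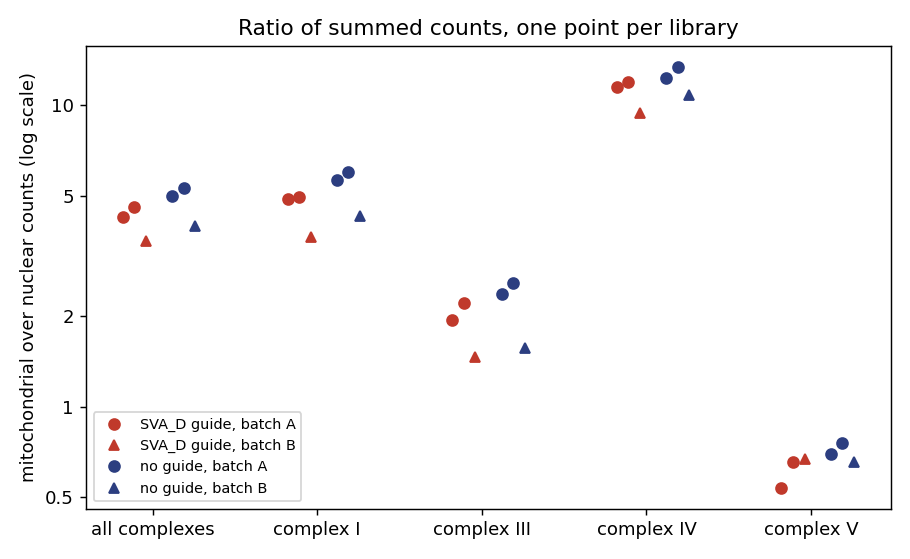
Ratio of summed mitochondrially encoded to summed nuclear counts per library, over all complexes and for complexes I, III, IV and V; each point is 1 of the 6 libraries, with its group and batch shown. For all complexes, I, III and IV the guide libraries lie below those without the guide within a batch, and batch B lies below batch A within a group.

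The second comparison was between the batches, with the group in the model. In edgeR at an adjusted p under 0.05, 3530 of 13007 genes were higher in batch B (27.1%) and 3454 lower (26.6%). Mitochondrial and nuclear members went different ways: 27 of 65 nuclear members were higher and 6 lower in batch B (median log2 fold change 0.19), while 0 of the 13 mitochondrial genes were higher and 7 lower (median -0.31). With library sizes not scaled by TMM, which moves the median of all genes from 0.0058 to 0.20, 5306 genes were higher and 1766 lower, and 41 nuclear members were higher, with 2 mitochondrial genes higher and 4 lower. Batch B holds 1 library a group, and what set it apart cannot be told apart from those 2 libraries.

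Among the mitochondrial genes, MT-ND4L had the largest difference, a log2 fold change of -0.71 ± 0.12 (SE, adjusted p 0.000204 in edgeR). MT-ND1 was lower by -0.63 ± 0.13, MT-CYB by -0.53 ± 0.13, MT-ATP8 by -0.47 ± 0.099, MT-CO1 by -0.39 ± 0.12, MT-ND3 by -0.34 ± 0.13 and MT-ND5 by -0.31 ± 0.090 (SE). With no TMM scaling the calls of MT-CO1, MT-ND3 and MT-ND5 were lost. MT-ATP6 and MT-CO3 stood at 0.16 ± 0.13 and 0.12 ± 0.13 (SE) and were not called, but with no TMM scaling both were called higher, at 0.35 and 0.32 (adjusted p 0.0216 and 0.0336 in edgeR). Without replicate 2 lacking the guide, MT-CO1, MT-ND3 and MT-ND5 were not called (adjusted p 0.0617, 0.0881 and 0.052 in edgeR), which left 4 mitochondrial genes lower.

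Of the nuclear members, NDUFB3 had the smallest p, with a log2 fold change of 0.87 ± 0.095 (SE, adjusted p 8.09e-06 in edgeR). NDUFB7, another accessory subunit of complex I, was at 57.0, 71.2 and 113 CPM with the guide and 71.3, 65.02 and 96.6 CPM without it, a log2 fold change of 0.66 ± 0.10 (SE). Both replicate 3 libraries were above the 4 others. Complex I had 13 members higher and 2 lower, complex II 2 higher, complex III 3 higher, complex IV 4 higher and 2 lower, and complex V 5 higher and 2 lower. SDHB and SDHC gave 0.29 ± 0.084 and 0.28 ± 0.078 (SE), and neither was called without replicate 2 lacking the guide (adjusted p 0.0521 and 0.0575 in edgeR). UQCR10, a small subunit of complex III, gave 0.69 ± 0.10, and UQCRFS1, its Rieske iron-sulfur protein, 0.54 ± 0.082 (SE). NDUFA4 gave 0.58 ± 0.077 and ATP5F1E, a subunit of the central stalk, 0.50 ± 0.13, while ATP5ME, a membrane subunit of complex V, gave 0.78 ± 0.21 (SE).

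In complex IV 2 pairs of paralogs moved in opposite directions between the batches. NDUFA4L2 was lower in batch B (log2 fold change -1.48 ± 0.19, SE, adjusted p 3.02e-05 in edgeR) whereas NDUFA4 was higher. COX7A2L, which takes part in joining complexes III and IV, was at 189.8, 207 and 137 CPM with the guide and 231.5, 216 and 136 CPM without it (-0.63 ± 0.085, SE), whereas COX7A2 was higher (0.44 ± 0.098, SE). The c-ring genes also split: ATP5MC1 and ATP5MC3 were higher (0.41 ± 0.12 and 0.33 ± 0.096, SE) and ATP5MC2 was lower (-0.30 ± 0.091, SE). The tested nuclear members have short transcripts, with a median of 761 bases beside 2641 over all tested genes. Across these 65 genes, Spearman's rho of transcript length with the batch log2 fold change was -0.30, and it was -0.094 across all tested genes. With the guide log2 fold change, rho was 0.36 across the 65 genes and 0.086 across all tested genes. The genes share the 6 libraries, and the part of length in either difference was not tested.

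**Figure D5:**
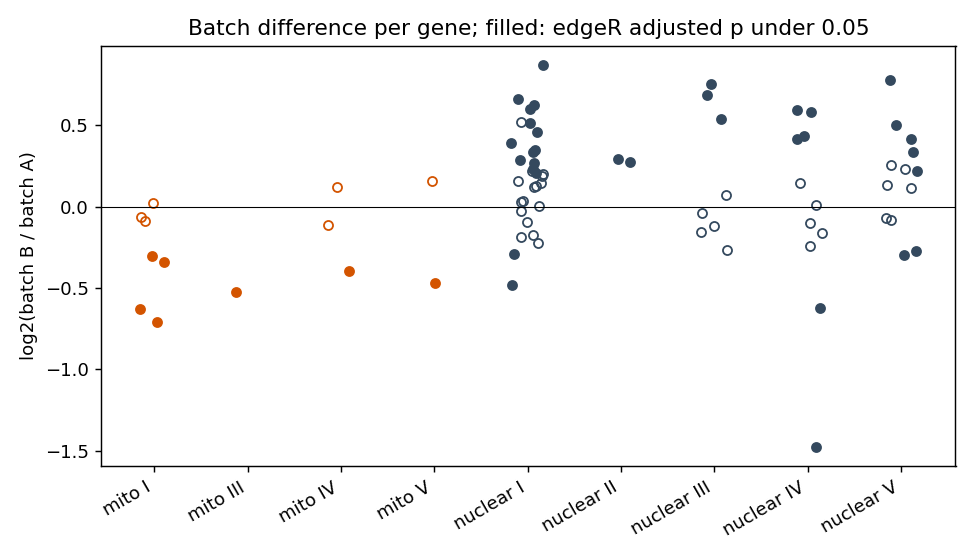
Log2 fold change of batch B over batch A for each tested member, by complex, with nuclear and mitochondrially encoded genes apart; each point is a gene and filled points are those with an adjusted p under 0.05 in edgeR. Called mitochondrial genes are all below 0, and called nuclear ones are mostly above it.

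Whether the guide difference itself differed between the batches was tested with an interaction term. No gene passed an adjusted p under 0.05, and 524 genes had a higher guide difference in batch B at an unadjusted p under 0.05 (4.03%) and 508 a lower one (3.91%). Of the 65 nuclear members 23 had an unadjusted p under 0.05, each with the higher difference in batch B, among them NDUFB9, ATP5F1D and COX5A. Of the mitochondrial genes 6 did so in the same direction (MT-ND1, MT-ND2, MT-ND3, MT-ND6, MT-ATP6 and MT-CO3), and MT-ND4L did so in the opposite one (unadjusted p 0.0202). The smallest adjusted p of any member was 0.61 in edgeR. MT-ND5 and MT-ATP8 gave nearly the same guide difference in both batches, -0.32 and -0.31 for MT-ND5 and -0.39 and -0.44 for MT-ATP8 on the log2 scale.

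Neighbouring mitochondrial genes that overlap or lie on opposite strands gave ratios that set guide replicate 3 apart. For each 100 counts of MT-ATP6 there were 16.8, 16.0 and 8.62 counts of MT-ATP8 in guide replicates 1, 2 and 3, and 16.0, 16.7 and 13.1 in the replicates without the guide. For each 100 counts of MT-ND4 there were 23.6, 22.2 and 11.2 counts of MT-ND4L with the guide and 21.8, 21.4 and 17.9 without it. In both pairs the short upstream gene, printed above, was lowest relative to its partner in guide replicate 3, followed by replicate 3 without the guide, and the 4 batch A libraries lay close together. MT-ND6, which lies next to MT-ND5 on the other strand, had 27.4, 28.5 and 42.8 counts for each 100 of MT-ND5 with the guide and 28.7, 29.8 and 29.8 without it. Counting ignored strand, so sense RNA of MT-ND6 and RNA from the opposite strand cannot be told apart. The low MT-ND4L and MT-ATP8 and the high MT-ND6 of guide replicate 3 are values of a single library.

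Promoters were read from RefSeq (GRCh38.p14) as the 300 bases from 250 before to 50 after the start. They matched 69 of the 88 nuclear members, with 82 promoters, and were searched on both strands. The motif of NRF1, a factor known to act on nuclear respiratory genes, was searched as GCGCA, any base, then GCGC, and occurred in 17 of the 82 (20.7%) and in 10 of the 64 of tested members (15.6%), beside 9.05% of the promoters of tested genes and 5.78% of all promoters of this length. The ETS letters CCGGAAGT, which GABP can bind, occurred in 14.6% of the members' promoters and 12.5% of the tested members', against 6.58% of those of tested genes and 4.14% of all. The YY1 motif, AAGATG directly followed by GCGG, occurred in 11% and 10.9%, against 2.18 and 1.2%. None of the 3 motifs contains another, and a match describes the sequence only. Of the 10 nuclear members with the smallest batch p in their complex, 7 had a promoter in the table, and 3 held the NRF1 letters, in 2 of them before the start. Those 2, ATP5ME and UQCRFS1, were both higher in batch B. So were the others of the 7: UQCR10, which held the letters but not before the start, and NDUFB3, NDUFB7, SDHB and ATP5F1E, which lacked them. The stretches around the NRF1 letters of ATP5ME and UQCRFS1 are shown 5′ to 3′ on the minus strand, with the motif in capitals. They lie at chr4:674461-674520, chr4:674416-674475 and chr19:29213152-29213211.
ATP5ME, first match: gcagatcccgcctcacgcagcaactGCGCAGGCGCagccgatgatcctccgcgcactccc
ATP5ME, second match: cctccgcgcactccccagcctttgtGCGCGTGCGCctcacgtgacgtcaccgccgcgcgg
UQCRFS1: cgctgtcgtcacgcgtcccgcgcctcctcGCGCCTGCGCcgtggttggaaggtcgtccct

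Genes that serve the chain and fall outside the symbol rule were examined through lists of their own, and none held a call with the guide (background 0%). The list of electron carriers and coenzyme Q synthesis includes CYC1 and NDUFAB1, subunits of complexes III and I. Of 34 tested genes of mitochondrial transcription, RNA processing and DNA maintenance, 3 had an unadjusted p under 0.05 and all 3 were higher (median log2 fold change 0.027). Among all 13007 tested genes, 2.67% reached that p on the higher side and 1.08% on the lower side. POLG, the mitochondrial DNA polymerase, was at 106, 96.4 and 120.2 CPM with the guide and at 80.5, 84.3 and 119.6 CPM without it (0.20 ± 0.084, SE), and GTPBP3, which modifies mitochondrial tRNAs, gave 0.17 ± 0.074. Of 65 tested mitochondrial ribosomal protein genes 52 were below 0 (median -0.043) and 1, MRPL18, was lower at an unadjusted p under 0.05, at -0.28 ± 0.089 (SE), followed by MRPL17 at -0.17 ± 0.081. Of 53 tested assembly factors 1 was higher (median -0.011), ACAD9, which builds complex I, at 0.19 ± 0.085 (SE), followed by FOXRED1 at 0.18 ± 0.086. The 17 regulators of mitochondrial biogenesis, the 20 tested citric acid cycle genes and the 19 genes of electron carriers and coenzyme Q synthesis had none at that p, with medians of -0.0060, 0.0059 and 0.018. In the first of these lists ESRRB gave 0.26 ± 0.14 and ESRRA 0.13 ± 0.076, in the second IDH3B gave 0.11 ± 0.076, and in the third DMAC2L gave -0.12 ± 0.081 and PDSS1 -0.13 ± 0.11 (SE). The median of the 13 mitochondrial genes, -0.29, was lower than that of every one of these lists and than the -0.076 of the tested nuclear members. No test was made between lists.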

How the data were processed

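RNA of 6 HEK293T libraries was sequenced as read pairs. The deposited gene files hold raw counts, which the authors made with featureCounts 2.0.0 after STAR 2.7.0e, with FastQC 0.11.8 for quality, per the submitters' processing notes. Per the file headers, counting ran over whole bodies of Ensembl 97 protein-coding genes (GRCh38), without strand, and left out pairs that align to several places or overlap more than 1 gene. Symbols came from a name table for 19887 genes and from GENCODE 29 for 93, and 6 stayed as identifiers. Overlaps between genes were computed from the deposited gene spans, and exons were those of GENCODE 29, in which 64 members have the same span.

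The counts were fitted in edgeR 4.0.16 (quasi-likelihood, R 4.3.3) with group and batch as terms. Genes passed filterByExpr at a minimum count of 10, library sizes were TMM-scaled (factors 0.926 to 1.09), and p-values were adjusted by Benjamini-Hochberg over all 13007 tested genes, called under 0.05. The batch term is a choice of this work: common dispersion was 0.00697 with it and 0.0609 without. The script was tested on simulated data. Alternatives included DESeq2 1.42.0 and limma 3.58.1 (voom). The members, the gene lists and the tests were chosen with earlier results of these data known. Genes named are the 13 mitochondrial genes, all SDH genes and isoform families, in each complex the 2 nuclear members with the smallest guide p on each side of 0 and the 2 with the smallest batch p, and the 2 genes of each other list with the smallest guide p, of which 1 is not reported here; COX7B, COX5A, NDUFB9, ATP5F1D, NDUFA1, NDUFA13 and NDUFA2 were named after their values were seen. CYC1 and NDUFAB1 are named as subunits outside the symbol rule. Same-numbered libraries of both groups deviated together (correlations 0.549, 0.672 and 0.858 across genes), largely through the batch: the difference of replicates 1 and 2 correlated at -0.072 between groups. The other count tables, of repeats, were not used here. The floor of 3 counts covers counting error only.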

Additional observations from a re-analysis of the deposited data

How the results depend on the processing

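All 13 mitochondrial genes had a log2 fold change below 0 with the guide under all 15 alternatives, with medians from -0.39 to -0.15, and the log2 ratio of mitochondrial to nuclear counts stayed below 0 over all complexes and in I, III, IV and V under all that were run, though leaving out 1 library moved it from -0.33 to -0.10 over all complexes, -0.39 to -0.094 in I, -0.42 to -0.037 in III, -0.24 to -0.054 in IV and -0.24 to -0.083 in V. These ratio values carry no batch term, so leaving out 1 library also changed the batch make-up of its group. No nuclear member was called under any alternative. With no count filter 5 genes were called higher and 2 lower, both mitochondrial, and with DESeq2 1 was lower, MT-ND4L; leaving out 1 library gave 0 to 2 higher, the 2 without guide replicate 1. Mitochondrial genes lower at an unadjusted p under 0.05 numbered 0 with no batch term and 13 with batch A only (3 to 13 leaving out 1 library). Nuclear members lower at that p numbered 0 with no batch term or no TMM, 21 with batch A only and 5 with no filter. They numbered 2 with DESeq2, 2 with limma-voom and 0 to 21 leaving out 1 library. Nuclear members higher at that p were not counted under the alternatives. Nuclear members below 0 ranged from 23 to 58. In the batch comparison no TMM gave 5306 higher and 1766 lower, with 41 nuclear higher, 2 mitochondrial higher and 4 lower (4 to 9 leaving out 1 library, 4 without replicate 2 lacking the guide). The replicate block in place of the batch term changed no call: 0 members were called, and 7 mitochondrial genes stood at an unadjusted p under 0.05.

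Of 37 named guide values 8 changed sign, all of them not called, and of 23 batch values 5. With no batch term SDHB gave 0.0014 and ATP5MC1 0.0090. With no TMM SDHB gave 0.033, NDUFA4 0.026 and ATP5MC1 0.023. With batch A only NDUFA4L2 gave -0.014 and UQCRHL -0.011. Leaving out 1 library at a time gave -0.082 to 0.050 for SDHB, -0.20 to 0.043 for COX4I1, -0.25 to 0.00093 for COX6B1, -0.21 to 0.0060 for COX7A2, -0.063 to 0.022 for NDUFA4, -0.014 to 0.17 for NDUFA4L2, -0.18 to 0.13 for ATP5MC1 and -0.060 to 0.31 for UQCRHL. Between batches MT-ND2, MT-CO2 and MT-ND4 gave 0.10, 0.083 and 0.13 with no TMM and MT-ND6 -0.0026 with no filter, and leaving out 1 library gave -0.070 to 0.063 for MT-ND6 and -0.011 to 0.16 for MT-CO3. The cause was not tested. Depth limits NDUFA13, NDUFA2, ATP5ME, UQCRHL and NDUFA4L2, whose totals were 108 to 1178 counts.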
